A study of Mus musculus with 2 samples.

Results

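The kinesin genes of the adult mouse stem cell niche were taken as every gene whose symbol starts with Kif followed by a digit. The rule found 39 of the 27998 genes in the table, and all 39 are accounted for here. They were read in single-cell RNA of cells from the lateral subventricular zone, the strip of tissue along the lateral ventricle where neural stem cells are activated, divide and give rise to neuroblasts. Of the 2 libraries, 1 came from pooled tissue of 4 male C57BL/6 mice aged 2 months and the other from pooled tissue of 8 male C57BL/6 mice aged 22 months. In both, cells positive for GLAST, a glutamate transporter of astrocytes and radial glia-like stem cells, and negative for O4, Ter119 and CD45 were sorted, and 8000 sort events per library were loaded. Single mice cannot be told apart in a pool, and with 1 library per age there are no replicates. The barcodes end in a library number that no label ties to an age, so values are given for library 1 and library 2 and neither is called young or old.

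Kinesins are motor proteins that use ATP to move along microtubules or to take them apart at their ends. In dividing cells one set pushes spindle poles apart, positions chromosomes and builds the midzone where the daughter cells separate. In neurons another set carries vesicles, mitochondria and other cargo along axons and dendrites and shapes the microtubules of growing neurites, and a few members serve cilia and the Hedgehog signal that passes through the primary cilium.

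By these roles 11 members were mitotic, 18 were transport and neurite kinesins and 6 were kinesins of cilia and Hedgehog signalling, with 4 others. A UMI (a molecular tag read once per captured transcript) was seen for 37 members in the cells kept. At least 20 UMIs over the classes described here were found for 33 members, and at least 100 for 25. The 11 mitotic members had 5313 UMIs and the 18 transport members 14527. Kif12 and Kif2b had 0 UMIs. A count of 0 allows up to 3 counts, which is 1.11 counts per 1000000 UMIs (CPM) in the astrocyte-like cells of library 1 and 4.26 CPM in the dividing neuroblasts of that library, the class with the fewest UMIs.

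Library 1 held 1849 barcodes and 10440891 UMIs and library 2 held 2088 barcodes and 13330251 UMIs, and 4 barcode sequences occurred in both. After filters 1825 and 2064 cells remained. They were clustered without the kinesins and their partner genes, and clusters were named from fixed markers, in the sense of "like". Astrocyte-like cells, which may hold both quiescent stem cells and astrocytes, numbered 713 in library 1 and 593 in library 2, activated cells 378 and 363, dividing cells 120 and 206, and neuroblasts 275 and 299. One further cluster, of 83 and 186 cells, carried both dividing and neuroblast markers and is called dividing neuroblasts. The defining markers followed the names: Slc1a3, the gene of GLAST, was at 2438 and 2288 CPM in astrocyte-like cells, Top2a at 717 and 913 CPM in dividing cells, and Dcx at 673 and 667 CPM in neuroblasts, against 12.2 and 16.7 CPM in astrocyte-like cells. Depth differed by class. The median cell had 3502 and 3555 UMIs among astrocyte-like cells, 7172 and 6997 among activated cells, 11966 and 11079 among dividing cells, 8683 and 9271.5 among dividing neuroblasts and 2945 and 3227 among neuroblasts. CPM are shares of a class's RNA, so values per cell are given beside several of them. All intervals are exact 95% intervals and cover counting error only.

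The 11 mitotic kinesins were low in astrocyte-like cells, higher in activated cells, and many times higher in dividing cells and dividing neuroblasts. Their summed level was 28.5 CPM (22.5 to 35.6) and 53.7 CPM (44.7 to 63.9) in the astrocyte-like cells of library 1 and library 2, and 87.3 (76.5 to 99.2) and 119.7 CPM (107 to 134) in activated cells. It reached 573 (536 to 612) and 701 CPM (667 to 736) in dividing cells and 914 (845 to 988) and 746 CPM (706 to 788) in dividing neuroblasts. In neuroblasts it was back at 50.2 (36.9 to 66.7) and 94.4 CPM (77.4 to 114). In both libraries the intervals of all 3 non-dividing classes lay far below those of the 2 dividing ones.

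Between dividing and astrocyte-like cells every mitotic member that could be compared was at least 2-fold higher in dividing cells, 10 of 10 in library 1 and 11 of 11 in library 2. Genes were compared where the 2 classes together held 20 UMIs or more. Of all genes compared in the same way, 20.6% in library 1 and 17.2% in library 2 were at least 2-fold higher. A member with few astrocyte-like UMIs reaches 20 only by being high in dividing cells, so these counts were partly set in advance. In library 1 astrocyte-like cells held 25 UMIs of Kif22, 12 of Kif20b and 5 of Kif11. The same limit applies to later counts of members that were higher than in astrocyte-like cells. Dividing neuroblasts gave the same picture against astrocyte-like cells, with 9 of 9 and 10 of 10 members at least 2-fold higher, against 18.7% and 17.5% of all genes. From astrocyte-like to dividing cells, the median difference of the mitotic members was 4.50 on the log2 scale in library 1 (order-statistic interval over members 3.48 to 5.25) and 3.82 in library 2 (3.16 to 4.43), where the medians over all genes were 0.01 and -0.01. Counted per cell instead, the medians were larger, 6.25 and 5.32, since dividing cells held more UMIs. With CPM and a minimum of 1 UMI, 11 of 11 members were higher in dividing cells in both libraries, with medians of 4.64 and 3.82.

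**Figure D1:**
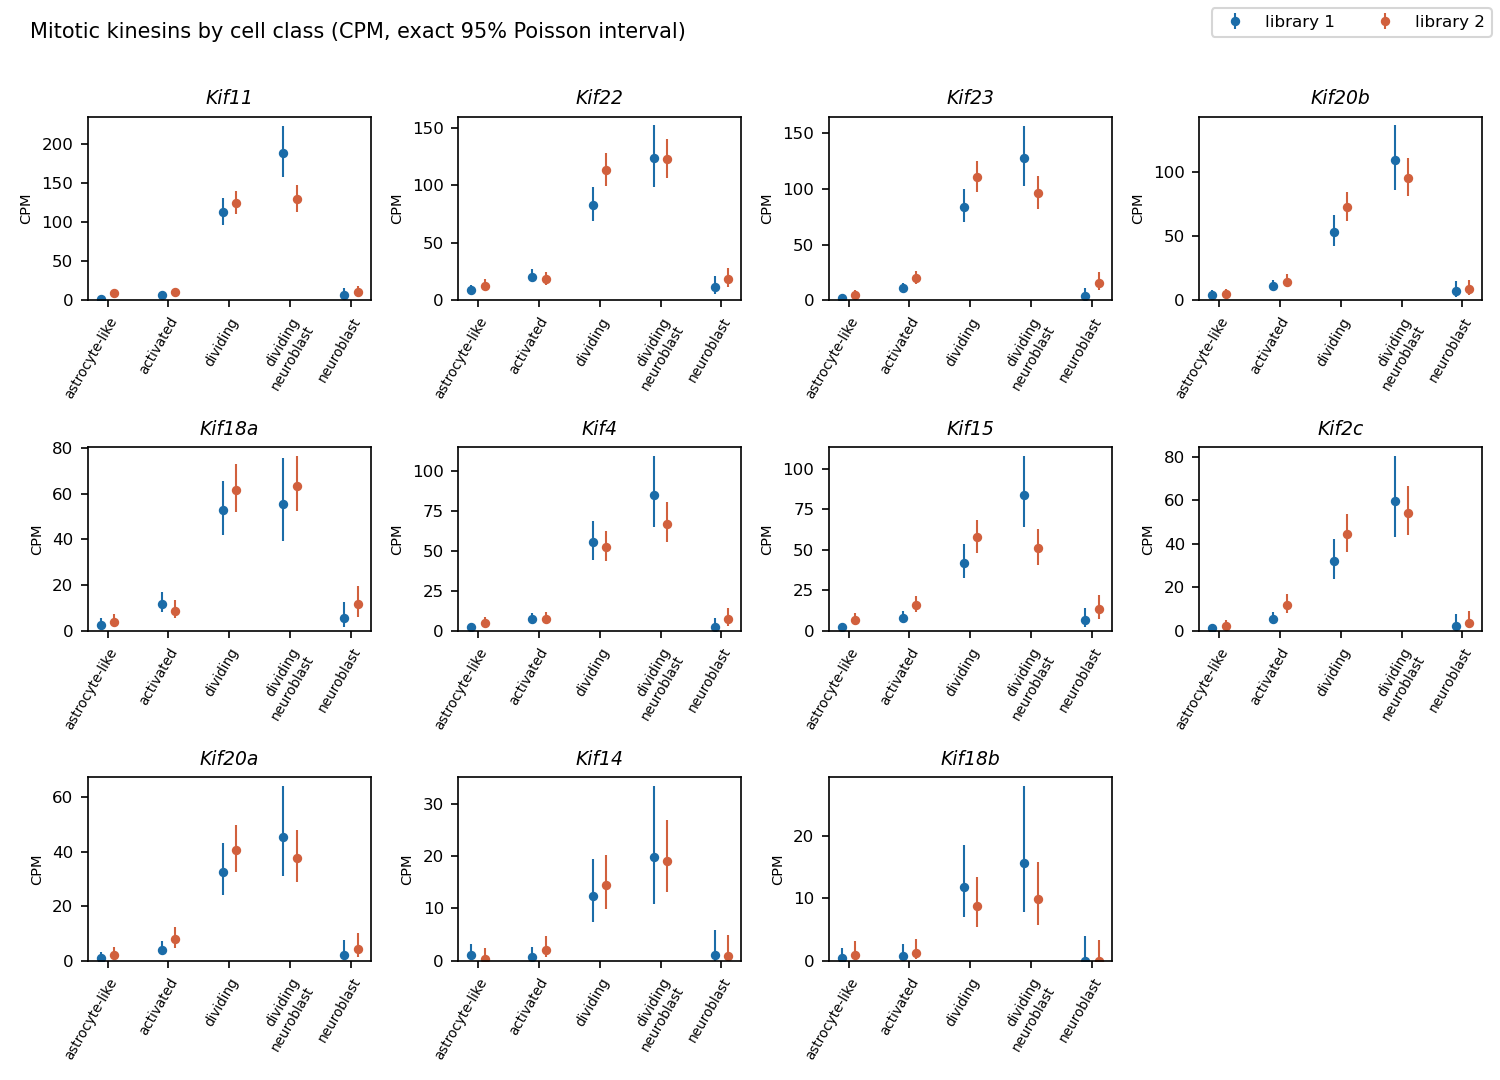
CPM of the 11 mitotic kinesins (y axes, each on its own scale from 0) in the 5 cell classes (x axes) of library 1 (blue) and library 2 (orange), with bars for the exact 95% Poisson interval. Each member is low in astrocyte-like cells, activated cells and neuroblasts and high in dividing cells and dividing neuroblasts, with Kif11 in dividing neuroblasts at 189 and 129.6 CPM.

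Kif11 (chr19:37376403-37421859, plus strand, GRCm38), the tetrameric motor that pushes the spindle poles apart, had 5 UMIs in the astrocyte-like cells of library 1 and 23 in those of library 2, or 1.85 (0.601 to 4.32) and 9.88 CPM (6.26 to 14.8). In dividing cells it was at 113 (96.8 to 131) and 125 CPM (111 to 140). Dividing over astrocyte-like cells gave ratios of 61.1 (25.7 to 191) and 12.6 (8.25 to 20.2), and the gap between these ratios came from the astrocyte-like side. Per cell, Kif11 went from 0.00701 and 0.0388 UMIs in astrocyte-like cells to 1.44 and 1.39 in dividing cells. Kif15, a second plus-end motor that helps to keep the spindle bipolar, was at 2.22 and 6.44 CPM in astrocyte-like cells and at 41.8 (32.2 to 53.4) and 57.5 CPM (48.1 to 68.2) in dividing cells.

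Members that act on chromosomes also stood higher in dividing cells. Kif22, a chromosome-bound motor that pushes chromosome arms away from the poles, was at 9.25 (5.99 to 13.7) and 12.9 CPM (8.69 to 18.4) in astrocyte-like cells. It was at 83.0 (69.2 to 98.7) and 113 CPM (100.0 to 128) in dividing cells, 8.97-fold (5.81 to 14.4) and 8.80-fold (6.02 to 13.3) higher. Kif18a, which dampens chromosome movement at the metaphase plate, differed 20.4-fold and 16.0-fold between the same classes, and Kif2c, which depolymerises microtubules at centromeres, 28.8-fold (9.31 to 145) and 20.7-fold (8.59 to 65.1). Kif18b, a plus-end depolymerising motor of astral microtubules, had 1 and 2 UMIs in astrocyte-like cells and 18 and 20 in dividing cells.

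The members of the spindle midzone and of cytokinesis followed the same order of classes. Kif23 (chr9:61915905-61946774, minus strand, GRCm38), the motor subunit of the centralspindlin complex, was at 2.22 (0.815 to 4.83) and 5.15 CPM (2.66 to 9.0) in astrocyte-like cells and at 84.3 (70.4 to 100.2) and 111 CPM (97.5 to 125) in dividing cells. Activated cells stood between, at 10.7 (7.19 to 15.4) and 20.3 CPM (15.1 to 26.7), and none of the 3 intervals overlapped within a library. Kif20a, which brings the Aurora B complex to the midzone, was 29.4-fold (9.51 to 148) and 18.9-fold (7.81 to 59.5) higher in dividing than in astrocyte-like cells. Kif4, a chromosome-bound motor that limits midzone length, was 25.0-fold (11 to 70.1) and 11.1-fold (5.97 to 22.8) higher. Kif20b, a midbody motor of late cytokinesis, was 12.1-fold and 14.1-fold higher. Kif14, a cytokinesis motor that works with citron kinase, had 3 and 1 UMIs in astrocyte-like cells, against 19 and 33 in dividing cells.

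In activated cells most mitotic members stood above astrocyte-like cells. In library 1, 7 of 7 compared were at least 2-fold higher, against 14.0% of all genes, and in library 2 it was 6 of 9, against 11.3%. The median differences were 1.81 (1.16 to 2.27) and 1.30 (0.51 to 1.98) on the log2 scale. Different clusters held most of the activated cells in the 2 libraries. Cluster 2, led by Ccnd1, Dll3, Dll1 and Gsx1, had 139 cells of library 1 and 232 of library 2, and cluster 3, led by the stress genes Junb, Socs3 and Cebpb, had 239 and 131. The mitotic sum was at 125 (106 to 147) and 145 CPM (128 to 163) in cluster 2 and at 58.2 (46.7 to 71.6) and 57.9 CPM (41.7 to 78.3) in cluster 3. In library 2 cluster 3 was thus not apart from the 53.7 CPM of astrocyte-like cells. Kif11 was at 11.9 and 14.0 CPM in cluster 2 and at 3.27 and 4.14 CPM in cluster 3, the last below the 9.88 CPM of astrocyte-like cells. None of the 10 leading genes of cluster 3 is a marker of activated cells, and in 2 of the other clusterings a cluster led by Socs3 and Junb was named astrocyte-like.

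How many cells carried these transcripts was counted after thinning each cell to 2000 UMIs, so that depth was equal. Cells too shallow for this were left out, which kept 635 of 713 and 558 of 593 astrocyte-like cells and every dividing cell. A UMI of any of the 11 members was then found in 5.83% of the astrocyte-like cells of library 1 (4.14 to 7.94%) and 9.68% of those of library 2 (7.35 to 12.4%). In dividing cells the shares were 66.7% (57.5 to 75.0%) and 69.4% (62.6 to 75.6%), and in dividing neuroblasts 83.1% (73.3 to 90.5%) and 77.4% (70.7 to 83.2%). Without thinning they were 99.2% and 98.1% in dividing cells and 9.40% and 15.5% in astrocyte-like cells. Oligodendrocytes, which do not divide, gave 4.35% in library 1 (1.20 to 10.8%, 92 cells, with a median of 4210 UMIs before thinning), so the share of astrocyte-like cells in that library is not told apart from background. Library 2 had 8 such oligodendrocytes, too few to give a background. Among its other cells, 58.3% of 12 ependymal cells and 6.90% of 29 oligodendrocyte precursors carried such a UMI. In library 1 these shares were 0% of 3 and 6.67% of 15. At the same depth 2 or more UMIs were found in 25.8% and 38.8% of dividing cells and in 0.315% and 0.358% of astrocyte-like cells.

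Among all kinesin UMIs the mitotic members made up 3.62% (2.87 to 4.50%) and 6.39% (5.35 to 7.57%) in astrocyte-like cells. They made up 40.1% (38.1 to 42.2%) and 46.3% (44.7 to 48.0%) in dividing cells and 50.1% (47.3 to 52.8%) and 46.2% (44.3 to 48.1%) in dividing neuroblasts. In neuroblasts the share was 4.36% and 7.86%, and transport members supplied 92.9% and 89.3% of the kinesin UMIs.

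The progression within the cell cycle was read in activated cells, dividing cells, neuroblasts of both kinds and 2 unnamed clusters described further on. Their thinned cells were binned by UMIs of 20 S phase genes and 16 G2 and M phase genes, none a kinesin, with 3 UMIs as the dividing line for each list. Cells with few UMIs of either list numbered 423 and 369, cells with S phase UMIs only 172 and 293, cells with both 261 and 540, and cells with G2 and M UMIs only 97 and 174. Many cells lay within 1 UMI of a line, 53 of 97 and 100 of 174 in the last bin, so the bins are ranges of a score and not phases. The summed level of the mitotic kinesins was 40.1 and 51.6 CPM in the first bin, 107 and 110.0 in the S phase bin, 548 and 559 in cells with both and 523 and 574 in the G2 and M bin. From the S phase bin to the G2 and M bin it differed 4.88-fold (4.02 to 5.94) in library 1 and 5.22-fold (4.52 to 6.06) in library 2, whereas the transport sum differed 1.02-fold (0.916 to 1.13) and 1.01-fold (0.931 to 1.09).

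The members differed in how much of their level was already present in the S phase bin. Kif22 was at 24.7 and 19.2 CPM there and at 63.6 and 83.7 CPM in the G2 and M bin, ratios of 2.57 (1.62 to 4.12) and 4.35 (3.03 to 6.35). Kif15 had ratios of 2.83 (1.43 to 5.77) and 3.02 (1.98 to 4.68). Both stood low among the members. At the other end, Kif4 went from 6.75 and 6.41 CPM to 44.5 and 49.1 CPM, ratios of 6.60 (3.11 to 15.6) and 7.65 (4.26 to 14.7), and Kif2c had 5.77 (2.79 to 13.1) and 13.5 (6.17 to 35.0). Kif11 had 8.48 (4.92 to 15.6) and 4.86 (3.31 to 7.28), and Kif23 8.48 (4.63 to 16.8) and 5.38 (3.69 to 8.04). In library 1 the intervals of Kif11 and Kif23 lay above that of Kif22, and in library 2 they overlapped it. In library 2 the interval of Kif2c lay above that of Kif15, and in library 1 the intervals of these members overlapped.

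**Figure D2:**
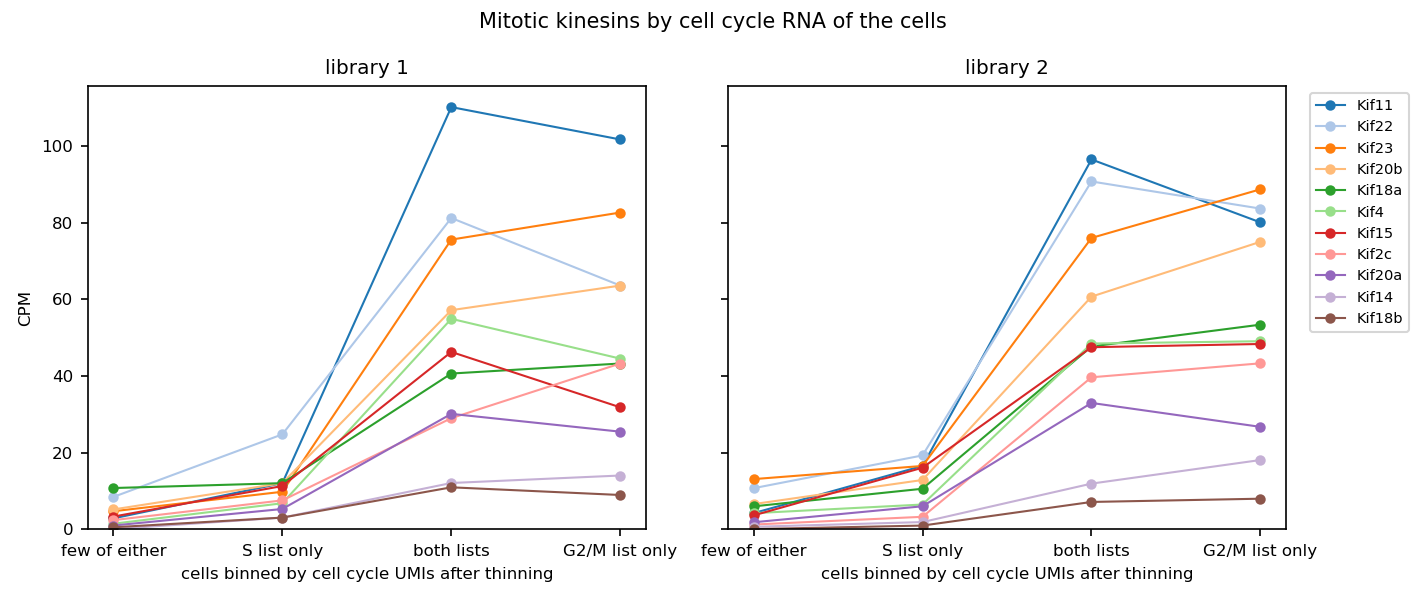
CPM of the 11 mitotic kinesins (y axis) in 4 bins of cells by their UMIs of S phase and of G2 and M phase genes after thinning (x axis), with library 1 on the left and library 2 on the right and 1 line per member. Levels are low in the first 2 bins and high in the last 2, and the summed level goes from 107 and 110.0 CPM in the S phase bin to 523 and 574 CPM in the G2 and M bin.

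Genes that moved with the mitotic group were read next to the spindle machinery with which it works. Of 25 spindle and midzone partners, a list that includes the Aurora kinases, checkpoint kinases and midzone proteins, 25 were higher in dividing than in astrocyte-like cells in both libraries and 23 and 22 were at least 2-fold higher, against 20.6% and 17.2% of all genes. Their median differences were 4.43 and 3.62 on the log2 scale. Ttk, a kinase of the spindle checkpoint, was at 40.5 against 0.37 CPM in library 1, where astrocyte-like cells had 1 UMI of it, and at 51.9 against 4.29 in library 2. Nusap1, which bundles spindle microtubules, was at 236 against 5.92 CPM and 343 against 12. Prc1, the midzone bundling protein that Kif4 binds, was at 244 against 7.03 CPM and 348 against 12.9.

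Mitotic kinesins that the symbol rule leaves out moved in the same direction. Cenpe, which carries chromosomes to the metaphase plate, was at 97.4 and 131 CPM in dividing cells and 2.96 and 9.02 CPM in astrocyte-like cells. Kifc1, a minus-end motor that focuses spindle poles, was at 76.5 and 85.0 CPM against 3.33 and 6.87. Kifc3, a minus-end motor linked to adhesion sites, was the reverse, at 3.27 and 0.87 CPM in dividing cells against 37.0 and 21.5 CPM in astrocyte-like cells.

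Since the mitotic members were high in the same classes, their promoters were read from RefSeq on GRCm38.p6, in windows from 250 bases before to 50 after each gene start. Of the 39 members, 32 were searched, with 36 promoters. Kif20a and Kif5b were not searched because chromosome 18 was left out for the members. The shares given for all promoters still include that chromosome. For Kif5a, Kif21b, Kif13b, Kif19a and Kif1bp no entry was found. The CHR motif, an element of promoters active in G2 and M phase, was searched as TTTGAA on both strands, and the CCAAT box as CCAAT on both strands. The motifs do not overlap in letters and both were matched exactly.

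The CHR letters were present in 9 of 10 mitotic members searched, in 2 of 14 transport members (Kif1a and Kif26b) and in 1 of 5 members of cilia and Hedgehog signalling (Kif27). They occur in 17.9% of all 32851 promoters of that length. In 7 of the 9 mitotic members a match lay within 30 bases of the start. Kif18a had none in its window. CCAAT was present in 6 of 10 mitotic and 4 of 14 transport members, against 37.4% of all promoters. Both motifs together were present in 6 of 10 mitotic members (Kif11, Kif14, Kif18b, Kif22, Kif23 and Kif4) and in 1 of 14 transport members, against 6.95% of all promoters. A match says only that the letters are there.

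**Figure D3:**
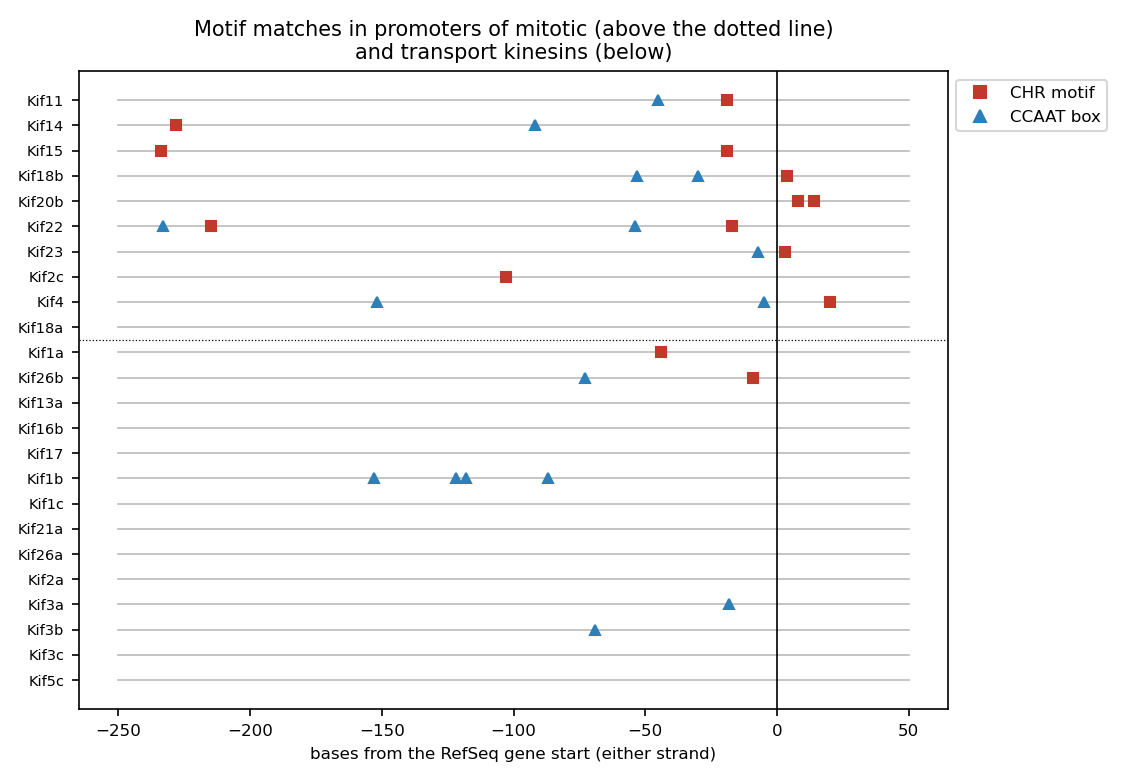
Positions of exact CHR (red squares) and CCAAT (blue triangles) matches on either strand, in bases from the RefSeq gene start (x axis), for 10 mitotic members above the dotted line and 14 transport members below it, 1 row per gene. CHR matches are seen in 9 of the 10 upper rows and 2 of the 14 lower rows.

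The promoter stretch from 100 bases before to 30 after the start is printed for 6 mitotic members that show how CHR and CCAAT are placed, for Kif18a, the mitotic member without CHR, and for Kif5c, the transport member with the widest gap between astrocyte-like cells and neuroblasts in library 1 among those with enough UMIs to compare. These were chosen after the matches were seen. Sequences run 5′ to 3′ on the gene's strand, on GRCm38.p6, and capitals mark the letters of either motif on either strand.
Kif11 (chr19:37376282-37376411, plus strand): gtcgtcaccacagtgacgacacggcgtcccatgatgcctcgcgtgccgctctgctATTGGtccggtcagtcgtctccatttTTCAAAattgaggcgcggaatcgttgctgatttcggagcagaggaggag
Kif22 (chr7:127042391-127042520, minus strand): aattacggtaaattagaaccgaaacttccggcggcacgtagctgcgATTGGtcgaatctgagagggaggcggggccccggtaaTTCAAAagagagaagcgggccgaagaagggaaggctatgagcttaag
Kif23 (chr9:61946770-61946899, minus strand): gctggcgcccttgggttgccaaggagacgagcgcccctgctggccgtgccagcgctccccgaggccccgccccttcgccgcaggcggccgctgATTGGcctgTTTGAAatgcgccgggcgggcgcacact
Kif4 (chrX:100625965-100626094, plus strand): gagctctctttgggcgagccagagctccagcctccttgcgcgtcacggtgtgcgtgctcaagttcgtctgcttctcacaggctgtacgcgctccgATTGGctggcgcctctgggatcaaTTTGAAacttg
Kif18b (chr11:102925095-102925224, minus strand): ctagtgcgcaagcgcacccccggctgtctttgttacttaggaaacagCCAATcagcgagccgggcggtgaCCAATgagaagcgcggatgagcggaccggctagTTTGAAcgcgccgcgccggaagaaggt
Kif20b (chr19:34922258-34922387, plus strand): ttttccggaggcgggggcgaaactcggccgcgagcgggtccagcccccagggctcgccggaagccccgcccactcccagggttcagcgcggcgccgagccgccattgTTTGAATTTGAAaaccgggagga
Kif18a (chr2:109280638-109280767, plus strand): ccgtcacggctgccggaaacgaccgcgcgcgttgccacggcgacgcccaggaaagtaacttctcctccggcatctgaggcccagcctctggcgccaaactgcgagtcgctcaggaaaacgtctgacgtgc
Kif5c (chr2:49619186-49619315, plus strand): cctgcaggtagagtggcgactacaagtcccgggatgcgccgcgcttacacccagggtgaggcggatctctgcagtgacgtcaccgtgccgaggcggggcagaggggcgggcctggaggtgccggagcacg

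In the Kif11 and Kif22 stretches the CCAAT letters come first and the CHR letters follow just before the start. In Kif18b 2 CCAAT matches precede a CHR match that lies after the start, and in Kif20b 2 CHR matches stand side by side with no CCAAT. Kif18a and Kif5c have neither in this stretch. Kif18a was among the members that were higher in dividing cells.

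The transport kinesins were expressed in every class, and their summed level varied far less than that of the mitotic members. It was 657 and 675 CPM in astrocyte-like cells, 792 and 689 in activated cells, 817 and 772 in dividing cells, 880.1 and 839 in dividing neuroblasts, and neuroblasts reached 1069 and 1073 CPM. Among these classes neuroblasts, migrating young neurons that extend a leading process, were the highest in both libraries on this scale. Oligodendrocytes, outside these classes, stood higher, at 1535 (1420 to 1656) and 1378 CPM (1066 to 1753), on 99 and 9 cells. In library 2 their interval overlapped that of neuroblasts, 1014 to 1135 CPM. Per cell the order of the listed classes turned over. Dividing cells held 10.4 and 8.60 UMIs and dividing neuroblasts 7.47 and 7.80. Neuroblasts held 3.64 and 4.07 and astrocyte-like cells 2.49 and 2.65. Oligodendrocytes held 6.68 and 7.33 UMIs per cell. Against astrocyte-like cells, 7 of 12 members compared in library 1 and 6 of 13 in library 2 were at least 2-fold higher in neuroblasts, where 19.7% and 18.0% of all genes were. One member, Kif1c, was at least 2-fold lower in each library, where 26.9% and 26.2% of all genes were. The median differences were 1.09 (-0.21 to 2.23) and 0.95 (-0.60 to 3.42) on the log2 scale, both intervals include 0, and members went different ways. With members of at least 100 UMIs alone the median of library 2 was 0.34, and against the astrocyte-like cells of cluster 0 alone the medians were 1.55 and 1.62.

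Conventional kinesin is built from 1 of 3 heavy chains, and these were distributed differently. Kif5c (chr2:49619298-49774778, plus strand, GRCm38), a heavy chain enriched in neurons, was at 9.99 (6.58 to 14.5) and 14.2 CPM (9.75 to 19.9) in astrocyte-like cells, 34.4 (27.8 to 42.2) and 39.0 (31.6 to 47.5) in activated cells and 43.1 (33.4 to 54.9) and 35.3 CPM (28.0 to 43.9) in dividing cells. It was at 86.6 (66.2 to 111) and 79.3 (66.5 to 93.7) in dividing neuroblasts and 139.9 (117 to 166) and 152 CPM (130.0 to 176) in neuroblasts. Only the neighbouring activated and dividing classes had overlapping intervals in both libraries. Neuroblasts stood 14.0-fold (9.20 to 22.0) and 10.7-fold (7.35 to 16.1) above astrocyte-like cells. Per cell, dividing neuroblasts were the highest class, at 0.735 and 0.737 UMIs against 0.476 and 0.575 in neuroblasts and 0.0379 and 0.0556 in astrocyte-like cells.

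Kif5a (chr10:127225696-127263348, minus strand, GRCm38), the heavy chain most restricted to neurons, was at 5.92 and 5.58 CPM in astrocyte-like cells, 3.70 and 1.59 in activated cells and 9.15 and 3.05 CPM in dividing cells. In dividing neuroblasts it was at 25.6 (15.1 to 40.4) and 22.6 CPM (16.0 to 30.8), and in neuroblasts at 55.5 (41.5 to 72.8) and 61.8 CPM (48.2 to 78.1). The neuroblast level was 9.38-fold (5.27 to 17.6) and 11.1-fold (6.07 to 21.8) that of astrocyte-like cells. Per cell, dividing neuroblasts and neuroblasts were near each other. Dividing neuroblasts held 18 UMIs in 83 cells and 39 in 186, and neuroblasts 52 in 275 and 70 in 299. Unlike Kif5c, Kif5a was no higher in activated than in astrocyte-like cells in either library on the CPM scale. Between the 2 neuroblast clusters Kif5a was at 78.4 (55.5 to 108) and 87.9 CPM (62.2 to 121) in cluster 5, led by Meg3, Runx1t1, Islr2 and Stmn2. It was at 31.0 (16.9 to 52.0) and 45.7 CPM (31.2 to 64.5) in cluster 7, led by Stmn2, Dlx6os1, Tubb3 and Sp8. Kif5c did not part them, at 149 and 134 CPM against 131 and 163.

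Kif5b, the heavy chain made by most cell types, was highest in the dividing classes. It was at 109 and 103 CPM in astrocyte-like cells, 182 and 166 in activated cells, 276 (250.1 to 303) and 261 (240.1 to 282) in dividing cells and 284 and 285 in dividing neuroblasts. Neuroblasts were at 208 (180.0 to 239.6) and 221 CPM (194 to 249.8). Per cell the contrast was wider, from 0.414 and 0.406 UMIs in astrocyte-like cells to 3.52 and 2.90 in dividing cells and 0.709 and 0.836 in neuroblasts. Within neuroblasts it stood opposite to Kif5a, at 153 (119.9 to 192) and 183 CPM (145 to 228) in cluster 5 and 268 (222 to 320.0) and 244 CPM (209 to 283) in cluster 7.

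**Figure D4:**
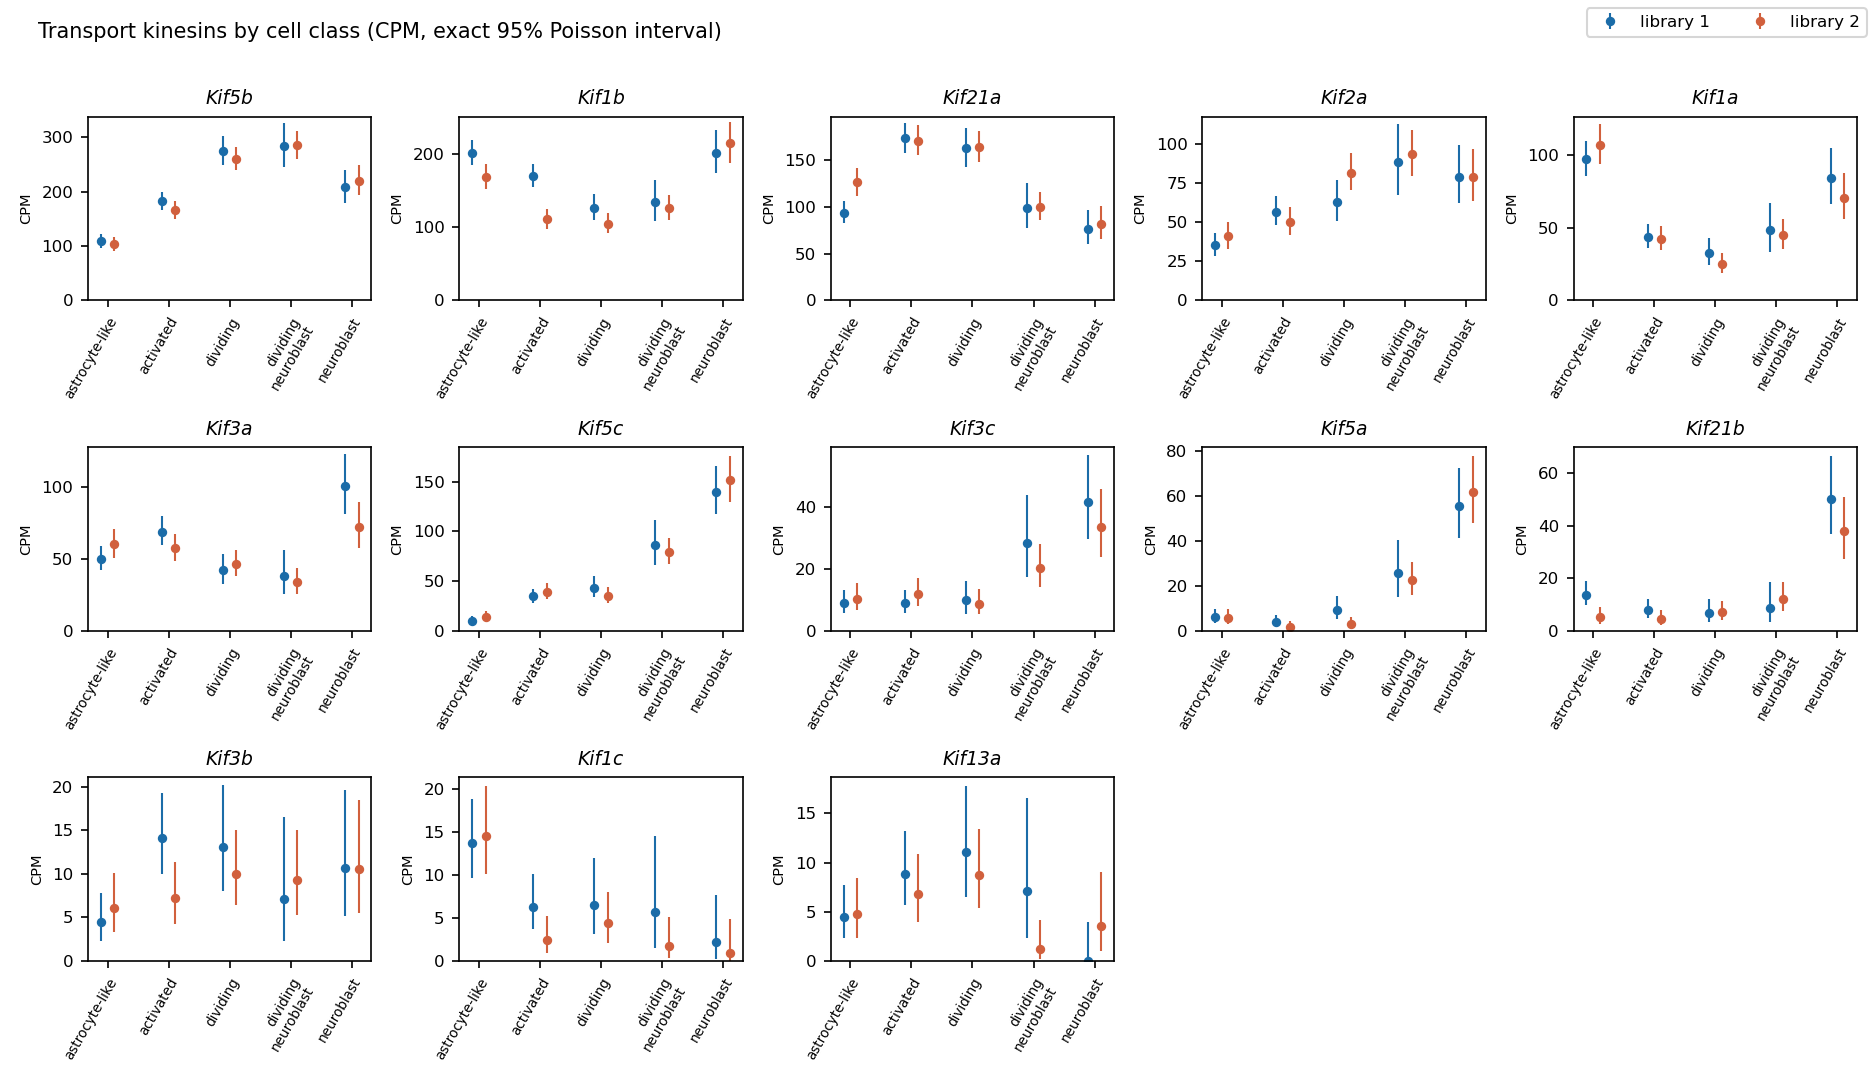
CPM of the 13 transport kinesins with at least 100 UMIs (y axes, each on its own scale from 0) in the 5 cell classes (x axes) of library 1 (blue) and library 2 (orange), with bars for the exact 95% Poisson interval. Kif5c, Kif5a, Kif21b and Kif3c are highest in neuroblasts, Kif5b in the dividing classes, Kif1c in astrocyte-like cells and Kif1a at both ends.

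Kif21b and Kif26a were highest in neuroblasts. Kif21b (chr1:136131389-136177998, plus strand, GRCm38), a motor that regulates microtubule growth in neurites, was at 13.7 (9.64 to 18.9) and 5.15 CPM (2.66 to 9.0) in astrocyte-like cells and between 4.37 and 12.2 CPM in the 3 classes between. In neuroblasts it was at 50.2 (36.9 to 66.7) and 38.0 CPM (27.5 to 51.1), 3.67-fold (2.33 to 5.80) and 7.37-fold (3.82 to 15.3) the astrocyte-like level. Kif26a, an atypical kinesin that does not move along microtubules, had 2 UMIs in the astrocyte-like cells of each library and 11 and 27 in neuroblasts, or 11.7 (5.86 to 21) and 23.8 CPM (15.7 to 34.7). Dividing neuroblasts did not share this level, with 2 and 7 UMIs of Kif26a.

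The kinesin-2 motors, which carry cargo in neurites and drive transport inside cilia, differed among themselves. Kif3c, a neuronal partner of Kif3a, was at 8.88 (5.69 to 13.2) and 10.3 CPM (6.60 to 15.3) in astrocyte-like cells and at similar levels in activated and dividing cells. It was at 28.4 (17.3 to 43.8) and 20.3 CPM (14.1 to 28.2) in dividing neuroblasts and at 41.6 (29.6 to 56.9) and 33.5 CPM (23.7 to 46.0) in neuroblasts. Per cell it was higher in dividing neuroblasts, at 0.241 and 0.188 UMIs, than in neuroblasts, at 0.142 and 0.127. Kif3a, the shared subunit, was at 50.0 and 60.1 CPM in astrocyte-like cells and 100.4 (81.1 to 123) and 72.4 CPM (57.6 to 89.8) in neuroblasts, 2.01-fold (1.53 to 2.63) higher in library 1 and 1.20-fold (0.905 to 1.59) in library 2. The interval for Kif3a excluded 1 in library 1 alone, and the 2 libraries differed 1.39-fold (1.02 to 1.89) in that class. Kif3b, the ubiquitous partner, was between 4.44 and 14.1 CPM in all classes.

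Kif2a, a microtubule depolymerase that prunes axon branches and also acts at spindle poles, was at 35.2 (28.4 to 43.0) and 40.8 CPM (33.0 to 49.9) in astrocyte-like cells. It was at 88.0 (67.5 to 113) and 93.2 CPM (79.3 to 109) in dividing neuroblasts and 79.0 (62.0 to 99.2) and 78.5 CPM (63.1 to 96.7) in neuroblasts, 2.25-fold and 1.93-fold above astrocyte-like cells. The 2 neuroblast classes did not differ beyond their intervals. Activated cells were at 56.6 and 50.1 CPM and dividing cells at 62.7 and 81.5 CPM. Per cell, Kif2a stood higher in dividing cells than in neuroblasts. Dividing cells held 96 UMIs in 120 cells and 187 in 206, and neuroblasts 74 in 275 and 89 in 299.

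Kif21a (chr15:90933276-91049948, minus strand, GRCm38), which stops microtubule growth at the cell cortex, went the other way. It was highest in activated cells, at 174 (158 to 190.0) and 171 CPM (155 to 188), and dividing cells, at 163 (143 to 184) and 164 CPM (148 to 181). It was at 99.4 and 100.1 CPM in dividing neuroblasts and at 76.9 (60.2 to 96.8) and 82.1 CPM (66.2 to 101) in neuroblasts. Astrocyte-like cells were at 93.6 (82.4 to 106) and 126 CPM (112 to 142), and its 2 clusters differed. Cluster 0, led by Cxcl14, Slc7a10 and Htra1, was at 57.0 (46.3 to 69.4) and 56.9 CPM (43.3 to 73.4). Cluster 1, led by Gfap, S100a6, Prss56 and Thbs4, was at 159 (135 to 187) and 182 CPM (159 to 207). Of the astrocyte-like cells, cluster 1 made up 188 of 713 in library 1 but 292 of 593 in library 2. Over the class, library 1 was at 0.742 of library 2 (0.624 to 0.880), while within each cluster the intervals of the libraries overlapped.

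Kif1a, which carries synaptic vesicle precursors, was lowest in dividing cells on the CPM scale. It was at 97.3 (85.9 to 110.0) and 107 CPM (94.4 to 122) in astrocyte-like cells, 44.0 and 42.5 in activated cells, 32.7 (24.2 to 43.1) and 25.3 CPM (19.2 to 32.7) in dividing cells, 48.3 and 45.1 in dividing neuroblasts and 84.4 (66.8 to 105) and 70.6 CPM (56.0 to 87.9) in neuroblasts. Per cell it was at 0.369 and 0.422 UMIs in astrocyte-like cells, 0.417 and 0.282 in dividing cells and 0.287 and 0.268 in neuroblasts. Per cell, dividing cells were thus not the lowest class in either library. They stood above neuroblasts in both, and below astrocyte-like cells in library 2 alone. Kif1b, which carries mitochondria and vesicle precursors, was at 201 and 169 CPM in astrocyte-like cells, 127 and 105 in dividing cells and 202 and 214 CPM in neuroblasts, but at 0.762 and 0.664, 1.62 and 1.17, and 0.687 and 0.813 UMIs per cell, so that the order of classes turned over.

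Kif1c, a motor of dense-core vesicles, was the one transport member compared that was at least 2-fold lower in neuroblasts than in astrocyte-like cells. In astrocyte-like cells it was at 13.7 (9.64 to 18.9) and 14.6 CPM (10.1 to 20.4). It had 2 and 1 UMIs in neuroblasts, or 2.14 (0.259 to 7.72) and 0.883 CPM (0.0223 to 4.92), with astrocyte-like over neuroblast ratios of 6.41 (1.65 to 54.9) and 16.5 (2.77 to 672). Per cell it was also lower in neuroblasts, at 0.00727 and 0.00334 UMIs against 0.0519 and 0.0573 in astrocyte-like cells, whereas dividing cells were at 0.0833 and 0.0485. Kif13a, an endosome motor, was between 4.44 and 11.1 CPM up to the dividing cells and had 0 and 4 UMIs in neuroblasts. The endosome motor Kif16b was between 2.31 and 11.4 CPM in all classes, Kif13b and Kif17 at or below 3.53 CPM, and Kif26b had 4 UMIs in these classes.

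Between dividing and astrocyte-like cells the transport members had no common direction. In library 1, 4 of 14 were at least 2-fold higher and 3 at least 2-fold lower. Of the 14 compared in library 2, these counts were 2 and 2. The backgrounds are 20.6% higher and 25.0% lower in library 1 and 17.2% and 23.9% in library 2, so the counts are near those of all genes. Kif5b and Kif5c were among the higher and Kif1a and Kif1c among the lower in both libraries. Their medians were 0.60 (-1.07 to 1.34) and 0.41 (-0.87 to 1.00) on the log2 scale.

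Cargo adaptors and the opposing motor, dynein, were read beside the transport kinesins. Of 20 adaptors, 18 and 17 could be compared between neuroblasts and astrocyte-like cells, and 4 and 2 were at least 2-fold higher in neuroblasts while 4 and 3 were at least 2-fold lower. Of all genes 19.7% and 18.0% were higher and 26.9% and 26.2% lower by that much, so the adaptors were near or below the shares of all genes. Grip1, which links glutamate receptors to Kif5, was at 24.6 and 55.6 CPM in neuroblasts against 1.48 and 2.58 in astrocyte-like cells. Dpysl2, which binds tubulin and kinesin light chain in axons, was at 1152 and 1409 CPM against 285 and 363. Of 20 dynein and dynactin genes, 5 of 19 were at least 2-fold higher in library 1 and 5 of 19 in library 2, and 1 and 3 were at least 2-fold lower, against the same shares of all genes. Dync1li1, a light intermediate chain of dynein, was at 99.3 and 113 CPM against 28.5 and 18.9, and Nde1, a dynein regulator of dividing progenitors, was at 10.7 and 19.4 CPM against 43.7 and 56.7.

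The kinesins of cilia and Hedgehog signalling were sparse, with 340 UMIs for 6 members. Kif9, a motor of motile cilia, was at 8.14 (5.10 to 12.3) and 20.2 CPM (14.8 to 26.8) in astrocyte-like cells and had 2 and 7 UMIs in dividing cells and 0 and 5 in neuroblasts. Kif19a, which sets the length of motile cilia, was at 12.6 (8.71 to 17.6) and 12.9 CPM (8.69 to 18.4) in astrocyte-like cells and had 1 and 4 UMIs in dividing cells and 1 and 2 in neuroblasts. On the CPM scale both were highest in astrocyte-like cells among the 5 classes. Per cell Kif9 was at 0.0309 and 0.0793 UMIs in astrocyte-like cells and at 0.0317 and 0.0331 in activated cells.

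Ependymal cells, the multiciliated lining of the ventricle, were present as 3 cells in library 1 and 13 in library 2, and there Kif9 stood at 267 (72.9 to 685) and 128 CPM (61.2 to 235). The 8 ependymal markers together were at 9095 and 11070 CPM in those cells and at 150.2 and 204 CPM in astrocyte-like cells, where Ccdc153 and Tmem212 were at 0 in library 1. Kif9 in library 1 was at 0.403 of its library 2 level in astrocyte-like cells (0.232 to 0.683). In cluster 1 it was at 8.28 (3.58 to 16.3) and 31.0 CPM (22.1 to 42.2), and in cluster 0 at 8.06 and 6.75 CPM. The part of ependymal RNA in these values was not tested.

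Kif7, the motor that organises the tip of the primary cilium and regulates Gli factors, was between 1.16 and 5.23 CPM in all classes and libraries. Of its 6 Hedgehog partners, 5 of 6 in library 1 and 4 of 5 in library 2 were at least 2-fold lower in neuroblasts than in astrocyte-like cells, against 26.9% and 26.2% of all genes. Smo, the signal transducer of the pathway, was at 2.14 and 6.18 CPM against 42.9 and 38.2, and Gli3, a transcription factor that Kif7 regulates, at 4.27 and 3.53 CPM against 42.6 and 40.4. Kif7 itself had 3 and 4 UMIs in neuroblasts, or 3.20 (0.661 to 9.36) and 3.53 CPM (0.962 to 9.04), and 9 and 7 in astrocyte-like cells, or 3.33 and 3.01 CPM, so a difference was not detectable at this depth. Kif24, a centriole cap protein that restrains cilium formation, had 0 and 1 UMIs in astrocyte-like cells and 7 and 14 in dividing cells, or 4.57 (1.84 to 9.42) and 6.10 CPM (3.34 to 10.2). Kif27 and Kif6, both of motile cilia, had 12 and 11 UMIs in the 5 classes.

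The other members with UMIs were Kif1bp, a kinesin-binding protein that is not itself a motor, and Kif16bos, an RNA antisense to Kif16b with 3 UMIs in the 5 classes. Kif1bp was at 77.0 (66.9 to 88.2) and 70.4 CPM (60.1 to 82.1) in astrocyte-like cells, 30.3 and 22.7 in activated cells, 26.1 and 26.1 in dividing cells, 22.7 and 18.5 in dividing neuroblasts and 27.8 and 22.1 CPM in neuroblasts. Per cell it was at 0.292 and 0.277 UMIs in astrocyte-like cells and at 0.333 and 0.291 in dividing cells, so those classes differed as a share of RNA and not in this way per cell. In neuroblasts it was lower on both scales, at 0.0945 and 0.0836 UMIs per cell.

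Between the 2 libraries the mitotic members were lower in library 1 in 4 classes and higher in dividing neuroblasts. Counts by direction alone are given here without the share of all genes that went the same way. In dividing cells 9 of 11 were lower in library 1, and their median log2 difference was -0.31 (-0.46 to 0.09). At least 2-fold higher or lower were 0 members, against 2.76% and 2.17% of all genes. Their sum in library 1 was 0.817 of that in library 2 (0.752 to 0.888). In dividing neuroblasts 10 of 11 stood above library 2, and their median log2 difference was 0.27 (0.01 to 0.67). Here too 0 members were at least 2-fold higher or lower, against 2.28% and 3.39% of all genes, and the sum was 1.22-fold (1.11 to 1.35). Kif15 was at 0.727 (0.531 to 0.987) in dividing cells and 1.64 (1.16 to 2.31) in dividing neuroblasts, and Kif23 at 0.761 (0.611 to 0.945) and 1.33 (1.02 to 1.73). Kif18a was below 1 in both, at 0.855 (0.643 to 1.13) and 0.870 (0.588 to 1.26), with intervals that include 1.

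The genes of G2 and M phase moved in the same way, at 3808 and 5689 CPM in dividing cells and 7214 and 6317 CPM in dividing neuroblasts. The S phase list was at 3772 and 3432 CPM in dividing cells and 2498 and 2965 CPM in dividing neuroblasts. In cells grouped by these lists the mitotic sum was at 40.1 and 51.6 CPM in cells with few UMIs of either, 107 and 110.0 in the S phase bin, 548 and 559 in cells with both and 523 and 574 in the G2 and M bin, with overlapping intervals between libraries in each bin. With dividing neuroblasts counted among dividing cells the median difference was -0.10, with 4 of 11 members higher in library 1. The part of cell cycle composition in the differences by class was not tested. With 1 pooled library on each side, age, library, mouse pool and preparation cannot be told apart, whichever library is the older one.

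**Figure D5:**
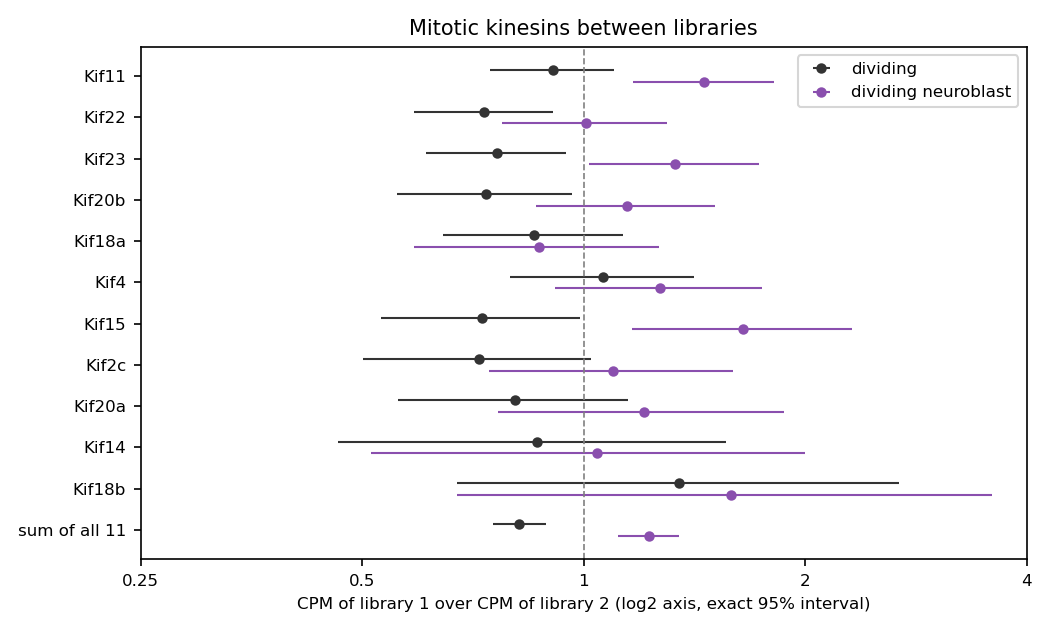
Ratio of the CPM of library 1 to that of library 2 (x axis, log2 scale) for the 11 mitotic kinesins and their sum (rows), in dividing cells (black) and dividing neuroblasts (purple), with exact 95% intervals that cover counting error only. The dashed line marks equality: the sum lies at 0.817 in dividing cells and 1.22 in dividing neuroblasts.

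In non-dividing classes the mitotic sum of library 1 was 0.531 of library 2 in astrocyte-like cells (0.394 to 0.711), 0.730 in activated cells (0.613 to 0.868) and 0.531 in neuroblasts (0.369 to 0.756). Kif11 in astrocyte-like cells was lower in library 1 in both clusters, at 1.73 and 9.64 CPM in cluster 0 and 2.07 and 10.1 CPM in cluster 1. Other cell cycle RNA moved with it: in astrocyte-like cells the spindle partners summed to 299 and 474 CPM and the G2 and M list to 421 and 651 CPM. Dividing cells and dividing neuroblasts together made up a smaller part of library 1, 6.58% and 4.55% of its cells against 9.98% and 9.01% of library 2. Whether RNA set free from dividing cells has a part in this was not tested.

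The transport kinesins showed no common direction between libraries. In neuroblasts 6 of 12 stood above library 2, and the median log2 difference was -0.04 (-0.12 to 0.31). At least 2-fold higher were 0 members, against 2.70% of all genes, and at least 2-fold lower was 1, Kif26a at 11.7 and 23.8 CPM, against 1.74%. The sum of library 1 over library 2 was 0.973 (0.909 to 1.04) in astrocyte-like cells, 1.06 (0.983 to 1.14) in dividing cells, 1.05 (0.953 to 1.15) in dividing neuroblasts and 0.996 (0.915 to 1.08) in neuroblasts. Activated cells differed, at 1.15 (1.08 to 1.23), with Kif1b at 169 and 111 CPM, 1.53-fold (1.32 to 1.79).

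Within the activated clusters Kif1b was at 123 (104 to 145) and 90.0 CPM (76.6 to 105) in cluster 2 and at 205 (183 to 229) and 161 CPM (133 to 193) in cluster 3. Oligodendrocytes held Kif1b at 778 CPM (697 to 866) in library 1, where they were 99 cells, and 689 CPM (474 to 968) in library 2, where they were 9. The 9 oligodendrocyte markers, each with a UMI in the activated cells of both libraries, summed to 346 and 61.6 CPM there and to 326 and 65.7 CPM in astrocyte-like cells. In the dividing cells of library 1 they summed to 769 CPM, and to 279 CPM without the 3 cells that had at least 10 such UMIs, against 43.6 CPM in library 2. Without cells of that kind Kif1b in activated cells was at 167 and 111 CPM. The part of oligodendrocyte RNA in the Kif1b difference was otherwise not tested.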

How the data were processed

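Single-cell 3′ RNA libraries of 2 pools of sorted mouse subventricular zone cells were analysed from the deposited matrix of raw UMI counts per gene and barcode. Cell Ranger 2.0.0 and the builds GRCm38.p3 and mm10 were used per the submitters' processing notes. How cells were called, and whether depth was equalised, is not given in the sources used here. No label tied a barcode suffix to an age.

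Kept barcodes had 500 genes or more and no more than 10% mitochondrial UMIs, and doublets marked by Scrublet at an expected 1.5% (15 and 11) were removed. From counts scaled to 10000 per cell, 2000 variable genes without kinesins or partner genes, 30 principal components and 15 neighbours gave 15 Leiden clusters at resolution 1 (Python 3.11.15, scanpy 1.11.5, leidenalg 0.10.2, seed 1). Clusters were named from 124 markers of 14 classes by highest mean log2 fold, with at least 3 markers at 1.5-fold. A cluster stayed unnamed where another class had more markers among its 10 leading genes. A shallow cluster with no marker of its best class among those genes also stayed unnamed. The naming rule was written with the clusters in view and then changed 2 times. A marker then had to be present in 5% of a cluster's cells, and the joint name of dividing neuroblasts was added. Its first form called cluster 2 endothelial.

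UMIs were summed by class and library and scaled to CPM. Gene loci are those of GENCODE M21 on GRCm38. Intervals are exact Poisson, exact conditional for ratios and Clopper-Pearson for shares. No tests were made, since cells are not replicates, and the scripts were tested on simulated data. Members with at least 100 UMIs were described by class, and from each partner list at most 3 genes with the largest difference were named. The members and lists were chosen with earlier results of these data known. Levels of single genes are not compared with each other, and only summed groups are given as shares of all kinesin UMIs.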

Additional observations from a re-analysis of the deposited data

Results flagged for a closer look

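The mitotic kinesins differed between libraries in opposite directions by class. The level of library 1 over library 2 was 0.531 in astrocyte-like cells, 0.730 in activated cells, 0.817 in dividing cells and 0.531 in neuroblasts, but 1.22 in dividing neuroblasts. Within each activated cluster the intervals of the libraries overlapped, and the clusters were mixed differently in the libraries. Kif11, Kif23 and Kif15 showed the same turn, each with intervals that exclude 1 on both sides, and were picked from the 11 members for that. Others did not, with Kif22 at 1.01 (0.775 to 1.30) and Kif18a at 0.870 (0.588 to 1.26) in dividing neuroblasts. In dividing cells the interval of Kif11 included 1, at 0.907 (0.747 to 1.10). Kif11 was at 0.187 in astrocyte-like cells and 1.46 in dividing neuroblasts. Kif23 was at 0.529 in activated cells, 0.761 in dividing cells and 0.269 in neuroblasts, against 1.33 in dividing neuroblasts. Kif15 was at 0.345 in astrocyte-like cells, 0.489 in activated cells and 0.727 in dividing cells, against 1.64 in dividing neuroblasts. The differences between classes were not tested, and there is 1 library on each side.

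Cells outside the compared classes held some kinesins at levels above those of the compared classes. In ependymal cells Kif9, of motile cilia, was at 267 CPM in library 1 and 128 CPM in library 2. In library 2 Kif19a was at 115 CPM and Kif6 at 63.8 CPM in the same cells. In oligodendrocytes Kif1b was at 778 and 689 CPM, and Kif13b, a motor linked to myelin formation, at 25.5 and 83.5 CPM. In library 1 these cells also had Kif1a at 202 CPM, Kif1bp at 125 CPM and Kif13a at 51.1 CPM. In oligodendrocyte precursors of library 2 Kif3a was at 194 CPM. These rest on 3 and 13 ependymal cells, 99 and 9 oligodendrocytes and 30 precursors. In library 2 the oligodendrocytes held 47892 UMIs in all, where 3 counts are 62.6 CPM, and the ependymal cells 78320. The library 2 values of Kif13b and Kif6 thus rest on a few UMIs.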

How the results depend on the processing

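The results recomputed were the medians of the mitotic members (dividing against astrocyte-like cells in each library, library 1 against library 2 in dividing cells) and of the transport members (neuroblasts against astrocyte-like cells, library 1 against library 2 in neuroblasts). The last of these lay near 0 and took either sign, from -0.18 to 0.05 under the first set of alternatives. The others kept their direction under the alternatives run, which were stricter cell filters, marked doublets kept, clustering at resolution 0.5 and 2, kinesins allowed in the clustering, thinning, means over cells and other UMI minimums. Thinning each cell to 2000 UMIs moved the mitotic difference between libraries in dividing cells from -0.31 to -0.60 and the transport difference in neuroblasts from -0.04 to -0.18. Restricting to members with at least 100 UMIs moved the transport median of library 2 from 0.95 to 0.34. Further alternatives, chosen after seeing the data, were dividing neuroblasts counted as dividing, single clusters, cells rich in oligodendrocyte UMIs left out, and UMIs per cell. With UMIs per cell in place of CPM the mitotic medians were 6.25 and 5.32 and the transport difference between libraries -0.19. At resolution 0.5, which gave 151 and 317 dividing cells, the mitotic difference between libraries was -0.09. No paired analysis was possible because there was 1 library per age and no comparison of groups was fitted, and no library could be left out for the same reason. Depth limits Kif14, Kif18b, Kif24 and Kif26a, which had at most 3 UMIs in the astrocyte-like cells of each library.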

Other observations

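Clusters 8 and 9 carried no class name and entered no comparison between classes, though their cells are among those binned by cell cycle genes. Cluster 8, with 79 cells of library 1 and 170 of library 2, had the mitotic kinesins at 359 CPM (313 to 411) and 344 CPM (314 to 376), between activated and dividing cells. Cluster 9, with 57 and 174 cells, had them at 168 (134 to 207) and 182 CPM (161 to 206). Its leading genes were Ung, Gm28050, Rbfox3, Alkbh2, E2f1, Chaf1b, Uhrf1, Gpd1, Trp53i11 and Elavl2, some but not all of them S phase genes. Cluster 9 scored highest for activated cells, with 7 markers at 1.5-fold. It stayed unnamed because no leading gene was a marker of that class while Rbfox3 was one of mature neurons. In it the S phase list was at 3705 and 3538 CPM and the G2 and M list at 1190.0 and 1689 CPM. Neither cluster showed a mitotic sum that differed between libraries beyond its intervals. At resolution 2 a cluster led by Gm28050, Eomes and Neurog2 held 0 cells of library 1 and 40 of library 2. Whether these cells lay in cluster 9 was not tested. Kif5c was at 55.2 and 50.2 CPM in cluster 8 and 78.9 and 72.5 CPM in cluster 9.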
